A study of Homo sapiens with 6 samples.

Results

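The genes of the nuclear histone acetyltransferases were followed in newly made and in total mRNA of a leukaemia cell line. The members are the 10 genes CREBBP, EP300, KAT2A, KAT2B, KAT5, KAT6A, KAT6B, KAT7, KAT8 and HAT1, taken by gene symbol from the 25420 genes of the 3′ UTR annotation. They have 11 of its 58136 3′ UTR entries, and the counts of a gene's entries were summed.

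Histone acetyltransferases move an acetyl group from acetyl-CoA to lysines in the histone tails, a mark of open and transcribed chromatin. CBP, encoded by CREBBP, and its paralog p300, encoded by EP300, acetylate histones at enhancers and promoters, where transcription factors recruit them. The other enzymes belong to the GCN5 family (KAT2A, KAT2B), to the MYST family (KAT5, KAT6A, KAT6B, KAT7, KAT8) or, like HAT1, act on newly made histones, and most of them work inside large complexes whose other subunits direct them to chromatin.

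All libraries came from MOLM-13, an established cell line of acute myeloid leukaemia, and the study asked which transcripts respond directly when CBP and p300 are inhibited. C646 is a small molecule that competes with acetyl-CoA in the catalytic domain of both proteins. The treated group received 10 µM C646 for 2 h and the control group its solvent DMSO for the same time, with 100 µM of the uridine analogue 4sU present in both groups for the last 1 h, in 3 replicates each. SLAM-seq alkylates the incorporated 4sU, and sequencing then reports a C where the genome has a T. Reads with such T > C conversions (T > C reads) mark transcripts made during labelling, apart from sequencing errors and base variants, and all reads together represent total mRNA. No library without 4sU was analysed here, so that the share of such background reads is unknown, which weighs most on members with few T > C reads.

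Each library held 7252597 to 10225448 reads on 3′ UTRs. T > C reads made up 8.79% ± 0.0637 (SD, n = 3) of them with DMSO and 6.48% ± 0.203 (SD, n = 3) with C646. Counting intervals treat reads as independent, which PCR copies are not. Neither the labels nor the methods say whether the replicates were separate cultures, so p-values measure the spread between these libraries. Of 12 myeloid markers, 11 had more than 10 reads per library on average, with summed levels of 3946 to 4222 CPM in DMSO and 4090 to 4367 CPM in C646 (CPM are scaled by the TMM-scaled total of reads on 3′ UTRs). In T > C reads, 6 of the 8 myeloid markers tested fell, with a median log2 fold change of −1.17, beside 38% of all genes (2 fell and 1 rose, with a median of −0.34, under TMM on the T > C reads). Their part in the members' results was not tested. The B cell, T cell, erythroid and epithelial marker lists summed to at most 6.11 CPM in any library. Fibroblast markers summed to between 0.808 and 2.32 CPM in DMSO and between 5.69 and 6.74 CPM in C646, with 3 of 4 genes at 0. Their part in any result below was not tested.

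CBP takes its name from CREB, the factor that binds the cAMP response element, and the promoters of the members were therefore searched for that element. RefSeq promoters of GRCh38.p14, from 250 bases before to 50 bases after the transcription start, were matched for 8 of the members, with 11 promoters in all. KAT6A and KAT8 are not among them. The palindrome TGACGTCA was in none of the 11 and in 1.85% of all 35116 promoters, and its core TGACGT, on either strand, was in 3 of the 11 and in 7.98% of all. These 3 matches are shown on the plus strand, which is the coding strand of each gene, with the core in capitals (written ACGTCA where it lies on the opposite strand). HAT1 has it 73 bases before the start (chr2:171922376-171922405), KAT5 29 bases before (chr11:65712211-65712240) and KAT7 64 bases before (chr17:49788605-49788634).
HAT1: tttaattggctaACGTCAcgctgggagtgg
KAT5: cggtcccggaagTGACGTctcccagagggg
KAT7: ctctggcccgtaACGTCAggtgacgcgaga
The same genes hold the ETS element CCGGAAG, which is in 10.3% of all promoters and which in KAT5 ends at the base before the core shown. The E-box CACGTG was in the KAT5 promoter and in 7.26% of all promoters, and the heat shock element in none of the 11 and in 0.49% of all. These matches describe the sequence only. Of the 3 genes, KAT7 was called in T > C reads below, and HAT1 and KAT5 were not.

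In newly made mRNA, 3 of the 10 members fell after 2 h of C646 and none rose. KAT6A, KAT7 and EP300 were lower by 1.90-fold, 1.96-fold and 1.73-fold. CREBBP, HAT1 and KAT5 had smaller differences that did not pass the test, and KAT2A had a higher value in C646 that did not pass either. KAT2B, KAT6B and KAT8 had too few T > C reads to enter the test. The quasi-likelihood test of edgeR was run over 7722 genes, with T > C reads scaled to the TMM-scaled totals of all reads. A call needed a p-value of 0.01 or less after Benjamini-Hochberg adjustment. Over all genes tested, 38% were lower and 3.83% higher, and the median log2 fold change was −0.83, with quartiles of −1.46 and −0.25. The 7 members tested had a median of −0.50, and 5 of them lay above the median of all genes. At an unadjusted p-value under 0.05, 3 members were lower and 0 higher, beside 60.8% of all genes in either direction, and DESeq2 with size factors from all reads called 3 lower and 0 higher as well. The study further required a log2 fold change of 1 in size, which none of the members reached together with the p-value, against 33% of all genes lower and 2.97% higher. KAT6A (−0.92) and KAT7 (−0.97) fell just short of that cutoff. The count was 3 without C646 replicate 1, 2 without DMSO replicate 2 and 1 without C646 replicate 3 or without DMSO replicate 3. KAT8 is among those 3, having entered that fit through the DMSO libraries only. In 55.9% of all genes tested every C646 library lay below every DMSO library, and KAT6A, KAT7 and EP300 were among them. In bulk libraries such as these, fewer cells of a type and less RNA per cell cannot be told apart.

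**Figure D1:**
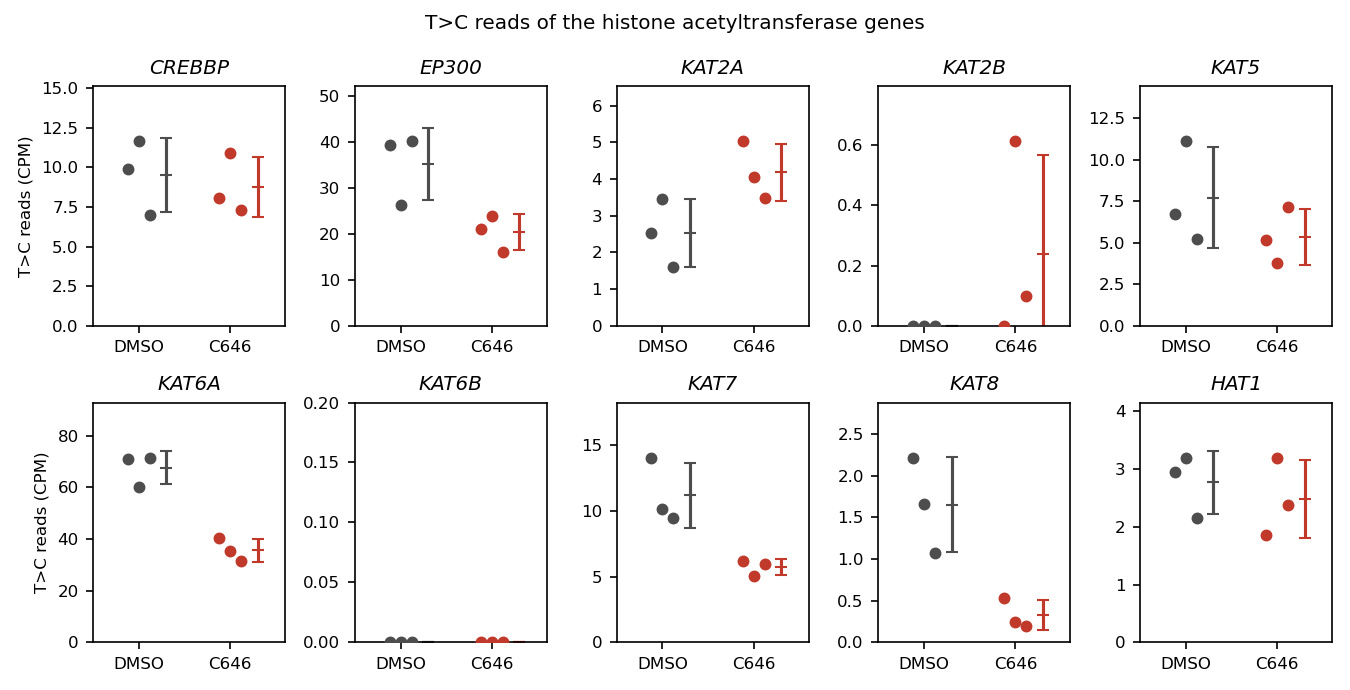
T > C reads of each member in CPM (vertical axes, each from 0 on its own scale) in the DMSO (grey) and C646 (red) libraries, one point per library, with the mean and SD of 3 libraries to the right. The groups do not overlap in KAT6A, KAT7, EP300 and KAT8, which are lower in C646, or in KAT2A, which is higher, and KAT6B has no T > C read.

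KAT6A, also called MOZ, is a MYST enzyme that acetylates histone H3 and is needed by blood stem cells. It had the most reads of the members. The T > C counts of KAT6A were 673, 434 and 530 for DMSO replicates 1 to 3 and 305, 288 and 316 for C646 replicates 1 to 3. Every C646 library lay below every DMSO library. Scaled, this was 67.5 ± 6.34 CPM (SD, n = 3) with DMSO and 35.7 ± 4.50 CPM (SD, n = 3) with C646, a fall of T > C reads by 0.92 on the log2 scale (SE 0.16, adjusted p = 2.43e-05 in edgeR's test). KAT6A lies on chromosome 8, and all its reads were on the longer of its 2 annotated 3′ UTRs, of 2726 bases. Leaving out any one library kept the call, with adjusted p-values in edgeR's test of at most 0.000652.

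EP300 (chromosome 22, plus strand, 3′ UTR at 41178957 to 41180077 of GRCh38) is one of the direct targets of the inhibitor at the protein level. Its T > C counts were 374, 189 and 298 for DMSO and 160, 195 and 163 for C646, in the order of the replicates. The raw counts overlap, since DMSO replicate 2 was low in EP300, but after scaling the lowest DMSO value, 26.2 CPM, lay above the highest C646 value, 23.9 CPM. T > C reads of EP300 were 35.3 ± 7.84 CPM (SD, n = 3) with DMSO and 20.4 ± 3.92 CPM (SD, n = 3) with C646 and fell by 0.79 on the log2 scale (SE 0.20, adjusted p = 0.00121 in edgeR's test). The call was lost without DMSO replicate 1 (−0.70, adjusted p = 0.0137), without DMSO replicate 3 (−0.69, adjusted p = 0.0156) and when scaled to all filtered reads (−0.59, adjusted p = 0.0169).

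CREBBP (chromosome 16, minus strand, 3′ UTR at 3725055 to 3727717), the gene of CBP, did not pass the test in T > C reads. The counts of its T > C reads, 94, 84 and 52 with DMSO and 61, 89 and 74 with C646, overlap between the groups. The levels were 9.52 ± 2.35 CPM (SD, n = 3) and 8.77 ± 1.88 CPM (SD, n = 3), with a log2 fold change of −0.12 and a 95% interval from −0.63 to 0.38 (adjusted p = 0.705 in edgeR's test). Within each library the log2 ratio of CREBBP to EP300 T > C reads was −1.99, −1.17 and −2.51 in DMSO and −1.38, −1.13 and −1.13 in C646, and the groups overlap. The change of this ratio by 0.67 had p = 0.2 in a two-sided exact permutation test (adjusted p = 0.3 over 3 pairs of paralogs), in which 3 libraries against 3 allow no p below 0.1. This test could not have reached the threshold of 0.01 and says nothing on whether CREBBP and EP300 responded alike.

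KAT7, also called HBO1, is a MYST enzyme that acetylates histones H3 and H4 together with subunits of the BRPF and JADE families. KAT7 (chromosome 17, plus strand, 3′ UTR at 49827503 to 49829096) had T > C counts of 133, 73 and 70 with DMSO and of 47, 41 and 60 with C646. Every DMSO library lay above every C646 library, and DMSO replicate 1 was the highest. The levels of 11.2 ± 2.48 CPM (SD, n = 3) and 5.73 ± 0.625 CPM (SD, n = 3) gave a fall by 0.97 on the log2 scale (SE 0.26, adjusted p = 0.00244 in edgeR's test). This call was lost without DMSO replicate 1 (−0.77, adjusted p = 0.0442), without C646 replicate 2 (−0.88, adjusted p = 0.0150) and when scaled to all filtered reads (−0.77, adjusted p = 0.01997). In addition, 3.34% of the KAT7 reads over the libraries mapped to several places, against at most 0.273% in any other member.

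The other tested members had fewer T > C reads. KAT5, also called TIP60, the catalytic subunit of the NuA4 complex, had 64, 80 and 39 T > C reads in DMSO and 39, 31 and 72 in C646, where replicate 3 stood above the other two. Its log2 fold change of −0.50 (SE 0.31) did not pass edgeR's test (adjusted p = 0.172). Its 3′ UTR overlaps an exon of RNASEH2C on the other strand, and although the library kit marks strand, how the counting used it is not given in the sources used here. HAT1, which acetylates histone H4 before it is deposited on DNA, had 28, 23 and 16 T > C reads in DMSO and 14, 26 and 24 in C646, with overlapping groups and a log2 fold change of −0.16 (SE 0.44, adjusted p = 0.773 in edgeR's test).

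KAT2A, also called GCN5, the acetyltransferase of the SAGA and ATAC complexes, was the only tested member with a T > C fold change above 0 under this scaling. It had 24, 25 and 12 T > C reads in DMSO and 38, 33 and 35 in C646. Every C646 library lay above every DMSO library, as in 6.45% of all genes tested, although scaled values of DMSO replicate 2 (3.466 CPM) and C646 replicate 3 (3.472 CPM) almost met. T > C reads of KAT2A were 2.54 ± 0.925 CPM (SD, n = 3) with DMSO and 4.18 ± 0.785 CPM (SD, n = 3) with C646, and the log2 fold change of 0.71 (SE 0.40) did not pass edgeR's test (adjusted p = 0.128). It ranked at the 94.1 percentile of the log2 fold changes of all genes.

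The calls depended on the scaling. With TMM on the T > C reads themselves, which sets the middle of the genes to about 0 (median 0.015), KAT2A was higher by 1.55 on the log2 scale (adjusted p = 0.00240 in edgeR's test) and KAT6A (−0.08) and KAT7 (−0.13) were no longer called. On that scale the values of EP300 (0.05), CREBBP (0.72), KAT5 (0.33) and HAT1 (0.67) lay above 0 and were not called, beside 8.9% of all genes lower and 11.5% higher.

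**Figure D2:**
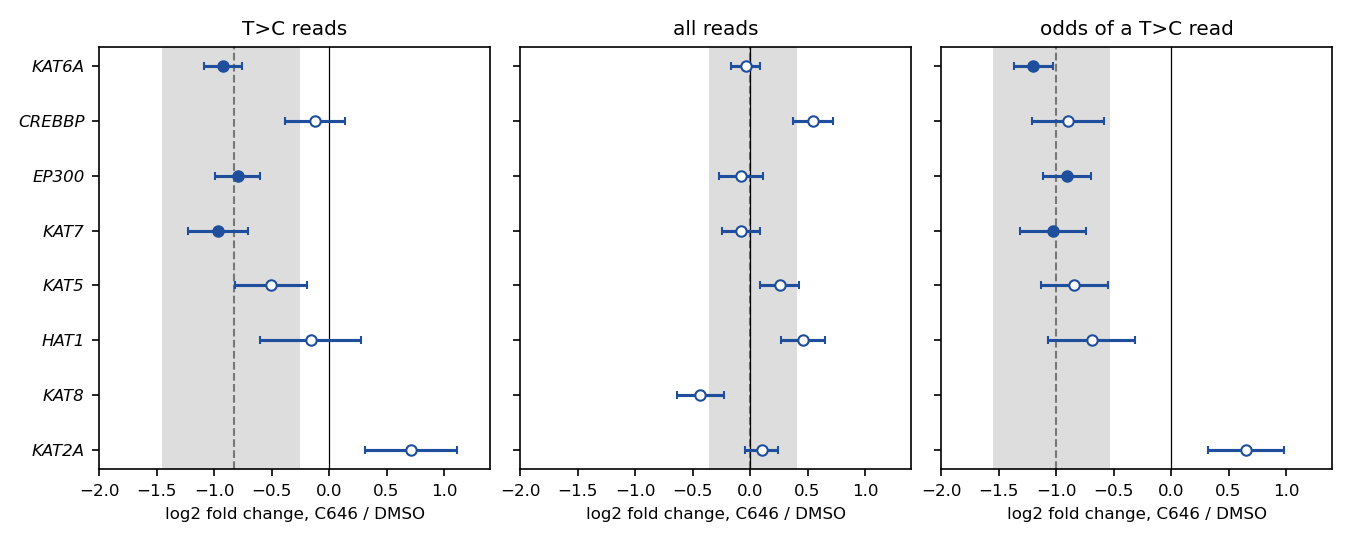
Log2 fold change of C646 against DMSO (horizontal axes) with its standard error for each member in 3 tests, filled at an adjusted p-value up to 0.01; the grey band spans the quartiles of all genes tested and the dashed line is their median. In T > C reads KAT6A, KAT7 and EP300 lie near the median of −0.83 and KAT2A above 0, while in all reads no member is filled; KAT8 was tested in all reads only.

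KAT8, KAT2B and KAT6B were near or below the limit of what could be counted. The MYST enzyme KAT8, also called MOF, which acetylates histone H4 at lysine 16 in the MSL and NSL complexes, had 21, 12 and 8 T > C reads in DMSO and 4, 2 and 2 in C646. Every C646 library was lower, and the sums of 41 and 8 reads give a 5.48-fold lower level after scaling, with an exact 95% interval from 2.54 to 13.5 that covers counting error only. KAT8 did not pass the filter on low counts, and in a fit of all genes without that filter its log2 fold change was −2.35 (SE 0.80, adjusted p = 0.0127 in edgeR's test), which did not pass.

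KAT2B, also called PCAF, the paralog of KAT2A, had 3, 0 and 5 reads of any kind in DMSO and 9, 17 and 20 in C646, so that every C646 library was higher. The sums of 8 and 46 reads differ 5.38-fold (exact 95% interval from 2.51 to 13.2, counting error only), and without the filter on low counts the log2 fold change of all reads was 2.36 (SE 0.86, adjusted p = 0.0296 in edgeR's test). It passed the filter in 4 of the fits that leave out a library, with values from 1.84 without DMSO replicate 2 to 3.22 without DMSO replicate 3, and was called in none of them. It entered these fits through the C646 libraries only, where its counts are high, so that their values are no further support for a rise. KAT2B T > C reads were 0 in each DMSO library and 0, 5 and 1 in C646, which is at least 1.87-fold higher against a floor of 3 reads over the DMSO group, but 5 of these 6 reads came from C646 replicate 2. KAT6B, also called MORF, the paralog of KAT6A, had 1 read in all 6 libraries together, in C646 replicate 3, and no T > C read. This is below the floor, and no fold was computed for it.

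For these 2 paralog pairs the ratio tests carry little, since one gene of each was almost without reads. The log2 ratio of KAT2A to KAT2B T > C reads, with 0.5 added to each count, changed by −0.83 (two-sided exact permutation test, p = 0.6, adjusted p = 0.6 over 3 pairs). The ratio of KAT6A to KAT6B is that of the unscaled KAT6A count to the added 0.5 and changed by −0.83 (two-sided exact permutation test, p = 0.1, adjusted p = 0.3).

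**Figure D3:**
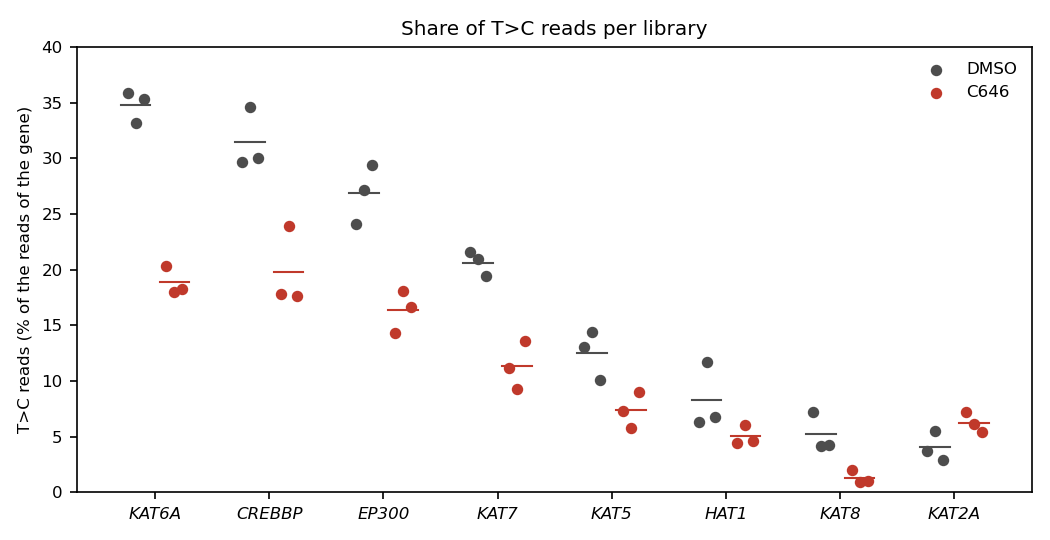
T > C reads as percent of all reads of the gene (vertical axis) for the 8 members with enough reads, one point per library (grey DMSO, red C646) and a line at the mean of 3 libraries. The shares order the members from KAT6A, at 34.8% in DMSO, to KAT2A, at 4.05%. The C646 libraries lie below the DMSO libraries in every gene shown except KAT2A, where the groups overlap. They did so in 64.5% of all 7722 genes tested.

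The share of a gene's reads that carried a conversion needs no scaling between libraries. In DMSO the members spanned most of the range of 8607 genes with a mean of 50 or more reads, whose median share was 11.5%. Pooled over the DMSO libraries, the share was 35.0% in KAT6A (91.9 percentile), 31.4% in CREBBP (89.6), 26.4% in EP300 (85.2), 20.8% in KAT7 (77.4), 12.8% in KAT5 (55.4), 7.66% in HAT1 (30.1), 5.34% in KAT8 (16.1) and 4.03% in KAT2A (9.09). The single libraries of KAT6A and CREBBP overlap in this order, as do those of KAT5 and HAT1, of HAT1 and KAT8 and of KAT8 and KAT2A, while all DMSO values of CREBBP lay above those of EP300, these above KAT7 and these above KAT5. The share is that of RNA made within the labelling time, so that a transcript with fast turnover has a high share. It also grows with the number of T bases a read covers. Counted as conversions per 100 T bases covered, the DMSO means kept the order of the members, with 2.39 in KAT6A, 2.18 in CREBBP, 1.87 in EP300, 1.31 in KAT7, 0.877 in KAT5, 0.531 in HAT1, 0.416 in KAT8 and 0.260 in KAT2A.

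With C646 the odds that a read carried a conversion fell in the same 3 members. The odds were modelled per gene from converted and unconverted reads, with a term for each library, in edgeR's quasi-likelihood framework. Of the 7722 genes, 44.8% were lower and 1.14% higher, and the median log2 fold change was −1.004. The KAT6A share was 34.8% ± 1.42 (SD, n = 3) with DMSO and 18.9% ± 1.28 (SD, n = 3) with C646, with its odds lower by 2.30-fold (log2 fold change −1.20, SE 0.17, adjusted p = 4.83e-06). The EP300 share went from 26.9% ± 2.67 (SD, n = 3) to 16.4% ± 1.91 (SD, n = 3), with odds lower by 1.88-fold (log2 fold change −0.91, SE 0.21, adjusted p = 0.000768). The KAT7 share went from 20.6% ± 1.11 (SD, n = 3) to 11.3% ± 2.16 (SD, n = 3), with odds lower by 2.04-fold (log2 fold change −1.03, SE 0.29, adjusted p = 0.00401). In each of these genes no C646 share reached the lowest DMSO share, as in 64.5% of all genes tested. Conversions per T > C read were 2.40 ± 0.132 (SD, n = 3) with DMSO and 2.01 ± 0.193 (SD, n = 3) with C646 in KAT6A. In KAT7 they were 2.27 ± 0.170 (SD, n = 3) and 1.79 ± 0.190 (SD, n = 3), and in EP300 2.37 ± 0.147 (SD, n = 3) and 2.27 ± 0.0516 (SD, n = 3). Whether the labelling itself differed between the groups, which would move the share as well, was not tested. The KAT7 call in the odds was lost without C646 replicate 2 (adjusted p = 0.0221 in edgeR's test) and without DMSO replicate 1 (0.0272), 2 (0.0197) or 3 (0.0134), with log2 fold changes that stayed between −1.08 and −0.88. That of EP300 was lost without DMSO replicate 3 (−0.82, adjusted p = 0.0106) and with conversions against T coverage (−0.77, adjusted p = 0.0125).

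CREBBP passed in neither measure. Its share was 31.4% ± 2.73 (SD, n = 3) with DMSO and 19.8% ± 3.58 (SD, n = 3) with C646, without overlap, as in 64.5% of all genes tested, and the log2 fold change of the odds was −0.90 (SE 0.31, adjusted p = 0.0162 in edgeR's test). That value is close to the −0.91 of EP300 but did not pass the threshold, and the 2 values have unlike parts. In EP300 the T > C reads had −0.79 and all reads −0.08. In CREBBP the T > C reads had −0.12 and all reads 0.55, with neither called. KAT5, at 12.5% ± 2.24 (SD, n = 3) and 7.37% ± 1.65 (SD, n = 3), had a log2 fold change of the odds of −0.84 (SE 0.29, adjusted p = 0.0157 in edgeR's test). Without C646 replicate 3 the KAT5 odds passed edgeR's test (−1.04, adjusted p = 0.00704). In a fit limited to genes with a mean of 50 or more T > C reads, both CREBBP (adjusted p = 0.00369) and KAT5 (adjusted p = 0.00532) passed edgeR's test. All 5 members tested in that fit were then lower, beside 63.2% of its 2843 genes, whose median of −0.87 is near the members' median of −0.91.

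HAT1 shares were 8.26% ± 2.97 (SD, n = 3) with DMSO and 5.04% ± 0.887 (SD, n = 3) with C646, with a log2 fold change of the odds of −0.69 (SE 0.38, adjusted p = 0.111 in edgeR's test). This HAT1 value was −0.40 without DMSO replicate 2 and −1.09 with conversions against T coverage, and was called in neither. KAT2A was again the only one of the 7 members that passed the filter with a value above 0, with 4.05% ± 1.32 (SD, n = 3) with DMSO and 6.25% ± 0.927 (SD, n = 3) with C646, overlapping groups and a log2 fold change of the odds of 0.66 (SE 0.33, adjusted p = 0.0859 in edgeR's test), at the 97.8 percentile of all genes. Pooled over the C646 libraries its share of 6.18% was the median of all genes, where it had been at the 9.09 percentile in DMSO. KAT8 shares were 5.21% ± 1.78 (SD, n = 3) and 1.33% ± 0.560 (SD, n = 3) without overlap, and in the fit without a filter its odds had a log2 fold change of −1.99 (SE 0.63, adjusted p = 0.00575 in edgeR's test), where 28.2% of all genes were lower. KAT8 passed the filter in 4 of the fits that leave out a library. Its C646 counts of 4, 2 and 2 T > C reads lie under the filter's minimum of 10, so that it entered these fits through the DMSO libraries only. The filter thus selects for a fall, and these fits are no further support. The KAT8 odds passed edgeR's test in 1 of the 4 fits, without C646 replicate 1 (adjusted p = 0.00594), with adjusted p-values of 0.0102 to 0.0234 in the others.

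In total mRNA no member changed by the rule. All reads were tested in 10851 genes with TMM on these reads. In edgeR's quasi-likelihood test 6.29% of the genes were lower and 9.81% higher. Of the 8 members tested, 0 were called by edgeR and 0 by DESeq2. At an unadjusted p-value under 0.05, 2 of these 8 members differed, CREBBP and HAT1, beside 42.6% of all genes. The median log2 fold change was 0.03 over the members and −0.0034 over all genes.

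**Figure D4:**
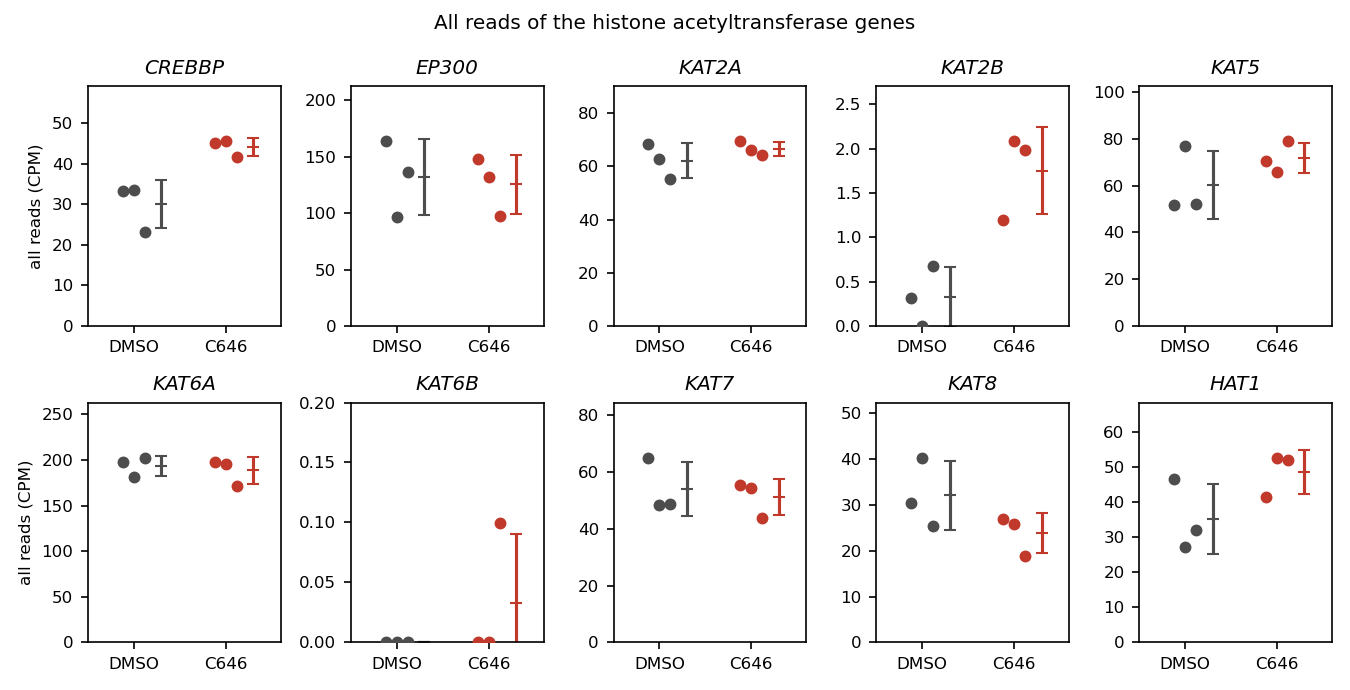
All reads of each member in CPM (vertical axes, each from 0 on its own scale) in the DMSO (grey) and C646 (red) libraries, one point per library, with the mean and SD of 3 libraries to the right. Only CREBBP and KAT2B have C646 libraries that all lie above the DMSO libraries; the other members overlap.

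CREBBP had 317, 243 and 173 reads in DMSO and 342, 372 and 420 in C646, and every C646 library was higher, as in 24.4% of all genes tested. Scaled, all reads of CREBBP were 30.1 ± 5.92 CPM (SD, n = 3) with DMSO and 44.2 ± 2.17 CPM (SD, n = 3) with C646, with a log2 fold change of 0.55 (SE 0.17, adjusted p = 0.0254 in edgeR's test). Scaled to all filtered reads of a library, the log2 fold change was 0.75 and passed the test (adjusted p = 0.00471).

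EP300 had 1553, 695 and 1014 reads in DMSO and 1118, 1078 and 979 in C646, where the DMSO libraries enclose those of C646. All reads of EP300 were 132 ± 33.9 CPM (SD, n = 3) and 126 ± 26.0 CPM (SD, n = 3), with a log2 fold change of −0.08 and a 95% interval from −0.45 to 0.30 (adjusted p = 0.793 in edgeR's test). KAT6A had 1874, 1307 and 1502 reads in DMSO and 1498, 1598 and 1728 in C646, which is 194 ± 11.04 CPM (SD, n = 3) and 188 ± 14.8 CPM (SD, n = 3). The log2 fold change of all reads of KAT6A was −0.04 with a 95% interval from −0.29 to 0.21 (adjusted p = 0.837 in edgeR's test), beside the fall of its T > C reads. KAT7, with 617, 349 and 361 reads in DMSO and 419, 443 and 442 in C646, had a log2 fold change of −0.08 and a 95% interval from −0.41 to 0.24 (adjusted p = 0.737 in edgeR's test).

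HAT1 had 441, 197 and 237 reads in DMSO and 313, 429 and 524 in C646, where DMSO replicate 1 reached into the range of C646, and a log2 fold change of 0.46 (SE 0.19, adjusted p = 0.0841 in edgeR's test). KAT8 had 289, 290 and 189 reads in DMSO and 203, 210 and 189 in C646, with overlapping groups and a log2 fold change of −0.43 (SE 0.20, adjusted p = 0.119 in edgeR's test). KAT5 and KAT2A, with overlapping groups, had log2 fold changes of 0.26 (SE 0.17) and 0.10 (SE 0.14).

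Among the genes that work with the acetyltransferases, newly made mRNA fell in some subunits of each complex listed. The 7 partner lists hold 87 genes, of which 72 were tested in T > C reads, and 27 of these fell and 1 rose. The 37.5% that fell is near the 38% of all genes, and the median of −0.94 near the −0.83 of all genes. In all reads 83 of the partner genes were tested, of which 8 fell and 10 rose, beside 6.29% of all genes lower and 9.81% higher. Of the genes named below, BRPF1 (−1.03), CITED4 (−1.30), ATXN7L3 (−0.89) and MRGBP (−0.89) were among those that fell. MORF4L1 (0.97) and ASF1A (0.76) were among those that rose. Some genes, such as TRRAP, MEAF6 and WDR5, are in more than one list. These counts depended on the scaling too. With TMM on the T > C reads, 2 genes were lower and 0 higher in the MOZ/MORF and HBO1 list, 2 and 1 among the factors binding CBP and p300, and 1 and 1 in the MSL and NSL list. On that scale none was lower in the other lists, while 2 were higher in the SAGA and ATAC list, 4 in the NuA4/TIP60 list, 1 among the HAT1 partners and 1 among the other acetyltransferases. Among the genes named below, USP22 (0.72), MORF4L1 (1.04), EPC1 (0.81), CITED2 (0.76), ASF1A (1.45) and MORF4L2 (1.82) were called higher on that scale.

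**Figure D5:**
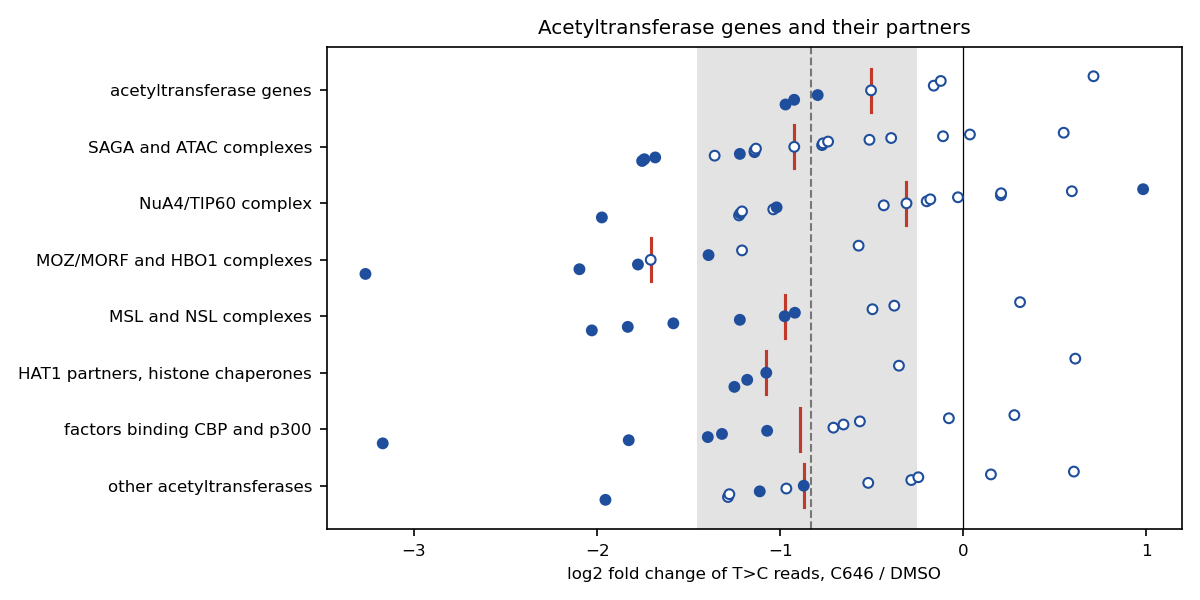
Log2 fold change of T > C reads, C646 against DMSO (horizontal axis), of each tested gene in the list of acetyltransferase genes and in 7 lists of partner genes (rows); filled points have an adjusted p-value up to 0.01, red lines are list medians, and the grey band and dashed line are the quartiles and median of all genes tested. The MOZ/MORF and HBO1 list has the lowest median, −1.71, and MORF4L2 in the NuA4/TIP60 list is the filled point above 0.

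In the MOZ/MORF and HBO1 complexes, in which KAT6A, KAT6B and KAT7 are the enzymes, 4 of the 7 tested subunits fell, with a list median of −1.71. BRPF1, a scaffold subunit of both complexes, went from 171, 184 and 177 T > C reads in DMSO to 32, 37 and 68 in C646. It fell by 2.10 on the log2 scale (SE 0.24, adjusted p = 3.18e-08 in edgeR's test). JADE1 and JADE2, scaffold subunits of the HBO1 complex, fell by 1.39 and 1.78 on the log2 scale. ING5, a subunit that binds methylated histone H3, fell by 3.27 on the log2 scale (SE 0.65), from 28, 23 and 23 T > C reads to 3, 0 and 5. Its C646 counts lie under the filter's minimum of 10, so that ING5 entered the test through the DMSO libraries only. The size of its fall is uncertain at these counts.

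In the SAGA and ATAC complexes of KAT2A and KAT2B, 4 of 17 tested subunits fell and none rose, with a median of −0.92. The largest fall was that of ATXN7L3, a subunit of the deubiquitinase module of SAGA, with 118, 109 and 78 T > C reads in DMSO and 27, 38 and 31 in C646 (log2 fold change −1.75, SE 0.28, adjusted p = 5.28e-06 in edgeR's test). ENY2 and USP22, of the same module, had log2 fold changes of T > C reads of −0.39 and −0.11 that did not pass. Their odds of a conversion fell, with log2 fold changes of −0.61 and −0.64, beside 44.8% of all genes. In all reads they had log2 fold changes of 0.16 and 0.43 that were not called.

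In the NuA4/TIP60 complex of KAT5, 3 of 15 tested subunits fell and 1 rose, with a median of −0.31. MRGBP, a small subunit of the complex, fell by 1.97 on the log2 scale, from 89, 79 and 60 T > C reads to 9, 14 and 41. MORF4L2, which is related to the chromodomain subunit MORF4L1, rose from 123, 121 and 115 T > C reads to 193, 270 and 308 (log2 fold change 0.98, SE 0.19, adjusted p = 0.000102 in edgeR's test). MORF4L1 itself (0.21) and the scaffold EPC1 (−0.03) did not pass in T > C reads. In the odds of a conversion both fell, with log2 fold changes of −0.83 and −0.82, beside 44.8% of all genes, and MORF4L2 did not pass (0.57). In all reads MORF4L1 was called higher (0.97, adjusted p = 0.00264 in edgeR's test), and EPC1 (0.29) was not called.

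In the MSL and NSL complexes of KAT8, 6 of 9 tested subunits fell and none rose, with a median of −0.97. MSL1, the scaffold of the MSL complex, fell by 2.03 on the log2 scale, from 84, 65 and 81 T > C reads to 27, 9 and 24. HCFC1, an NSL subunit also known as a cofactor of viral and cellular transcription, fell by 1.58 on the log2 scale, while MSL2 (−0.50) and MCRS1 (−0.38) did not pass. The odds of a conversion fell in MSL2, MCRS1 and HCFC1, with log2 fold changes of −1.81, −0.65 and −1.47, beside 44.8% of all genes. In all reads these genes had log2 fold changes of 0.61, 0.21 and −0.18 that were not called.

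Among the 5 HAT1 partners and histone chaperones, 3 fell and none rose, with a median of −1.08. NASP, which holds histones H3 and H4 before deposition, fell by 1.25 on the log2 scale, from 162, 109 and 99 T > C reads to 32, 53 and 83, and the chaperone ASF1B fell by 1.18. Its paralog ASF1A had a value of 0.61 (adjusted p = 0.0160 in edgeR's test) that did not pass. In all reads ASF1A was called higher (0.76, adjusted p = 0.00271 in edgeR's test).

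Of 10 tested factors that recruit or bind CBP and p300, 5 fell and none rose, with a median of −0.89. MYB, a transcription factor of blood progenitors that binds the KIX domain of CBP and p300, had 1407, 1273 and 1028 T > C reads in DMSO and 457, 497 and 553 in C646. MYB fell by 1.39 on the log2 scale (SE 0.15, adjusted p = 5.49e-09 in edgeR's test). CITED4, a co-activator that binds CBP and p300, fell by 3.17 on the log2 scale, from 178, 119 and 143 T > C reads to 16, 24 and 11. CITED2 of the same family (−0.08) did not pass in T > C reads. Its odds of a conversion fell (log2 fold change −1.46, adjusted p = 1.16e-05 in edgeR's test), beside 44.8% of all genes. In all reads CITED2 had a log2 fold change of 0.54 that was not called (adjusted p = 0.0394 in edgeR's test).

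Of 11 other genes tested whose proteins have reported acetyltransferase activity, 3 fell and none rose, with a median of −0.87. NAA60, an acetyltransferase of protein N-termini, fell by 1.95 on the log2 scale, from 48, 70 and 34 T > C reads to 9, 22 and 11, and GTF3C4, a subunit of the RNA polymerase III factor TFIIIC, fell by 0.87. ELP3 (−0.28), the catalytic subunit of Elongator, and NAA50 (−0.24) did not pass.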

How the data were processed

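The authors aligned QuantSeq 3′ end reads to GRCh38 with SLAM-Dunk 0.4.1 and deposited, per library and 3′ UTR, raw counts of all reads, T > C reads, conversions and multimapped reads. They also deposited the read coverage over T positions as an unscaled signal, reads as CPM of the filtered reads of the library, and the conversion rate as a fraction, which was not used here. The labels name CASAVA 1.9 as well. The deposited T > C reads include reads with 1 conversion, whereas the methods of the study describe tests of reads with at least 2. The members and lists were chosen with earlier results of these data known.

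Counts were summed per gene (symbols for 25310 of 25420 identifiers) and tested with edgeR 4.0.16 in R 4.3.3 (filterByExpr, minimum count 10; glmQLFit, glmQLFTest, Benjamini-Hochberg), with DESeq2 1.42.0 as an alternative. Standard errors were derived from the fold change and its quasi-likelihood F statistic, and intervals take a normal error. CPM in the text are scaled by the TMM-scaled total of reads on 3′ UTRs. Depth was 7252597 to 10225448 reads per library, and libraries of a group differed by more than counting noise. In simulated T > C counts with 4-fold changes, edgeR recovered 99.5% of the changed genes tested. The simulation used the same dispersion for all genes and balanced rises and falls, unlike the data. It does not give the power for the smaller changes of the tested members. Partner genes named are the 3 with the most T > C reads in each list and the largest called fall and rise; one gene so chosen is not reported here. Alternatives were other scalings, filters, entry choices, DESeq2, a replicate block and each library left out. Summaries and plots used pandas 2.3.3, scipy 1.17.1 and matplotlib 3.10.9 under Python 3.11.15. Place names were checked against GENCODE release 44.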

Additional observations from a re-analysis of the deposited data

How the results depend on the processing

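With TMM on the T > C reads or DESeq2 with size factors from T > C reads, 0 members were lower and 1, KAT2A, was higher (1 also at the study's cutoffs). The log2 fold changes then turned above 0 in CREBBP (0.72 and 0.69), EP300 (0.051 and 0.023), KAT5 (0.33 and 0.29) and HAT1 (0.67 and 0.65). Scaled to all filtered reads, 1 member was lower in T > C reads, with EP300 (adjusted p = 0.0169) and KAT7 (adjusted p = 0.01997) lost in edgeR's test, and CREBBP (0.083) and HAT1 (0.047) turned above 0. In all reads that scaling called 1 member higher, CREBBP, and gave 0.12 in EP300, 0.16 in KAT6A and 0.12 in KAT7.

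With one library left out, 1 to 4 members were lower in T > C reads (0 to 3 at the study's cutoffs) and 1 to 4 in the odds (1 to 3 at those cutoffs). Only KAT6A stayed lower in T > C reads without DMSO replicate 1 and in the odds without DMSO replicate 3, and KAT8, tested in 4 of these fits, passed both tests without C646 replicate 1 and neither in the other 3 (adjusted p of 0.0128 to 0.0294 in T > C reads and of 0.0102 to 0.0234 in the odds, edgeR's test). KAT8 entered these fits through the DMSO libraries only, where its counts are high, so that they add no support for its fall. T > C values ranged from −0.78 to −0.16 in KAT5, from −0.31 to 0.039 in CREBBP (above 0 without DMSO replicate 2) and from −0.38 to 0.0078 in HAT1 (above 0 without C646 replicate 1). All-reads values ranged from −0.26 to 0.11 in EP300, from −0.088 to 0.024 in KAT6A and from −0.16 to 0.077 in KAT7, above 0 without C646 replicate 3 and, in EP300 and KAT7, without DMSO replicate 1. They ran from 0.31 to 0.72 in HAT1, from 0.40 to 0.63 in CREBBP and from 0.16 to 0.47 in KAT5. In KAT2A they ran from 0.025 to 0.18 and in KAT8 from −0.57 to −0.24. No member was called in all reads in these fits. The ratio of CREBBP to EP300 changed by 0.36 to 1.03, that of KAT2A to KAT2B by −1.72 to 0.11 (0.11 without C646 replicate 2) and that of KAT6A to KAT6B by −0.98 to −0.66.

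Limited to genes with a mean of 50 or more T > C reads, 5 members had lower odds, beside 63.2% of all genes in that fit, and with conversions against T coverage EP300 lost its call in the odds (adjusted p = 0.0125 in edgeR's test). With the replicate block, 1 member, CREBBP, was higher in all reads (0.57, adjusted p = 0.00745 in edgeR's test), and the block changed no other call. Same-numbered libraries had mean correlations of 0.12 in all reads and 0.046 in T > C reads, which do not establish pairs. The cause of these changes was not tested. KAT8, KAT2B and KAT6B did not pass the filter on T > C reads with all libraries in the fit.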

Other observations

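The genes whose T > C levels ran most like CREBBP over the 6 libraries were METTL23, PSMA7 and FNIP1, with Pearson correlations of 0.960, 0.956 and 0.938 of log2 CPM among 2843 genes that had a mean of 50 or more T > C reads. For EP300 they were TTI2, TMEM50A and CLP1, with 0.988, 0.987 and 0.981. Over the 2843 genes, 5 had a correlation above 0.9 with CREBBP and 160 with EP300. With 6 libraries in 2 groups these correlations describe the libraries only.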
